A study of Felis catus with 25 samples.

Results

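Collagens are helical proteins wound from several chains, and the messages of 34 chain genes were followed in fibroblasts of the corneal stroma of the cat (Felis catus), grown in culture. The chains are all rows of the deposited count tables whose symbol is COL, a number, A and a number, other than COL1A1, COL3A1 and COL11A1. They were 34 of 13949 gene symbols, all 34 had at least 1 count, and 27 were among the 10699 genes with enough counts to be tested. The other 7 are described by their raw counts at the end. By class, 7 chains form fibrils, 9 sit on fibrils (the fibril-associated or FACIT class), 4 form beaded filaments, 6 form the basement membrane network, 3 form short-chain networks, 1 is a multiplexin, 2 cross the cell membrane and 2 are others.

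The 25 libraries of polyadenylated RNA formed 5 groups of 5. FB held untreated fibroblasts harvested at day 0, which the labels describe as quiescent and grown on collagen-coated dishes. TGFb held cells after 2 days with transforming growth factor beta 1 (TGFb1) at 1 ng/ml, the cytokine that turns stromal fibroblasts into contractile myofibroblasts. The remaining 3 groups had TGFb1 removed at day 2 and then received a drug to day 5. Trog received troglitazone at 7.5 uM, a ligand of the nuclear receptor PPAR-gamma, and TrogGW received the same dose with 10 uM of GW9662, an antagonist of that receptor. UK received 30 uM of UK-5099, which blocks the carrier that brings pyruvate into mitochondria. The labels give no strain, age or number of cats, and do not say whether the biological replicates were separate cultures, so the spread behind each p-value is that among these libraries and may be technical. No untreated library of day 2 or day 5 was analysed here, so TGFb1 and 2 days of culture cannot be told apart, nor can a drug, the removal of TGFb1 and 3 more days. In bulk RNA, fewer cells that express a chain and less of its message per cell cannot be told apart either.

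Depth was 14.8 to 25.2 M counts per library. UK replicate 5 stood apart: over genes, the correlation of its log2 counts per M (CPM) with those of UK replicates 1 to 4 was 0.837 to 0.855, and the other 46 pairs within groups reached at least 0.991. It entered the fit of all comparisons, and more genes passed in each of them without it. Counts of calls are therefore given with and without it, and 19 changes of single chains that did not pass with it passed without it. ACTA2, the smooth muscle actin that marks myofibroblasts, had a mean of 1942 CPM in FB and 9003 in TGFb, which goes with the labels, and 269.9, 9.38 and 3408 in Trog, TrogGW and UK. Of the stromal fibroblast markers, 12 of 13 in the tables passed the count filter. Their summed level was 37162 to 42082 CPM in FB, 99475 to 122268 in TGFb and 70026 to 96320 in UK. In Trog it was 25456 to 31164 CPM and in TrogGW 7488 to 17800, with FN1 the highest of the list in each group. Single markers of the list went both ways. From TGFb to Trog and TrogGW, means of SPARC went from 24955 to 1381 and 517 CPM, and of FBN1 from 8959 to 1561 and 810. Those of PDGFRB went from 107 to 387 and 176 CPM, and of TWIST1 from 10.7 to 17.3 and 35.8. The part of the difference in the summed level in the chain levels was not tested. Keratocyte markers passed in 4 of 6 cases (sum 247 to 733 CPM). Most of that sum was TKT, with group means of 265 to 396 CPM. The other genes of the list had group means of at most 11.7 CPM. For corneal epithelium, 3 of 9 markers passed, and the summed level of the list was 0.637 to 14 CPM. Those that passed were EPCAM, CLDN1 and PAX6, with highest group means of 9.24, 3.72 and 2.08 CPM. The keratins KRT3, KRT12 and KRT24 were at 0 in all libraries. All 12 markers of corneal endothelium passed (sum 1835 to 4679 CPM over all libraries), and 1 of them, COL8A2, is itself among the chains. Immune markers passed in 3 of 12 cases (sum 10.7 to 38.6 CPM), with PTPRC and CD163 at 0. Those that passed were CD68 (group means 10.8 to 25.8 CPM), CD14 and CSF1R. In TGFb, Trog, TrogGW and UK the means were 0.703, 3.50, 2.15 and 3.50 CPM for CD14. For CSF1R they were 0.152, 5.81, 4.44 and 6.33 CPM. Vascular endothelial markers passed in 6 of 12 (75.4 to 210.0 CPM) and Schwann cell and melanocyte markers in 3 of 10 (30.6 to 137 CPM, with TYR, DCT and TYRP1 at 0). ERG led the vascular list in each group (means 51.1 to 132 CPM) and MBP the other list (25.8 to 112 CPM).

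As background, a chain becomes protein only as part of a trimer, so the chains of 1 collagen type are usually made together. In the corneal stroma, type I collagen with a core of type V forms thin, evenly spaced fibrils, types XII and XIV coat their surface, and type VI runs between them as beaded filaments. Type IV is the sheet of basement membranes, in which COL4A1 and COL4A2 form the widespread network while COL4A3, COL4A4, COL4A5 and COL4A6 form more restricted ones. Scarring corneas lay down more, and less ordered, collagen, and myofibroblasts are the cells that do so. Levels are given in CPM with TMM scaling. Because no transcript lengths were used, a level can be compared between groups for 1 chain but not between chains.

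Together the 34 chains took 5.98% ± 0.162 of the counts of a library in FB, 6.84% ± 0.314 in TGFb, 1.52% ± 0.107 in Trog, 0.893% ± 0.268 in TrogGW and 6.37% ± 1.65 in UK (SD, n = 5), or 7.1% ± 0.252 in UK without replicate 5 (n = 4). The share was lower in every Trog and TrogGW library than in any library of the other groups. TGFb1 went with more message of COL5A1, COL5A2, COL12A1 and the type IV chains COL4A3 to COL4A6, and with less of COL5A3, COL14A1 and COL23A1. In Trog and TrogGW most chains were below their TGFb level, COL1A2 and COL5A1 by 28.2 and 27 times in Trog, while in UK COL1A2 did not differ by the test and COL4A5 rose. A change was called at an adjusted p under 0.05 in edgeR's quasi-likelihood test over all tested genes. Between TGFb and FB, 13 of 27 chains changed, 10 higher and 3 lower in TGFb, where 38.2% of all genes were called (18.0% higher and 20.2% lower). The median log2 fold change was 0.24 over the chains and -0.02 over all genes tested. Without UK replicate 5, 18 chains passed, 11 higher and 7 lower, beside 66.0% of all genes (31.7% higher and 34.3% lower). The 5 added were COL4A1, COL4A2, COL9A3 and COL15A1, lower in TGFb, and COL9A2, higher. Scaled by library totals alone, which moves the median of all genes by -0.37, 7 chains were higher and 8 lower. In a fit of those 2 groups alone, 21 chains passed, 13 higher and 8 lower. Shares of all genes called were not worked out for that scaling or that fit, so these counts cannot be set against all genes. In Trog against TGFb, 25 of 27 chains changed, 23 of them lower, beside 62.6% of all genes called and 29.7% lower. The median was -1.81 for the chains and 0.044 for all genes. Leaving out UK replicate 5 gave 26 chains, 2 higher and 24 lower, beside 81.0% of all genes (42.0% higher and 39.0% lower). For TrogGW against TGFb, 26 changed and 23 were lower, beside 69.4% of all genes called and 31.3% lower, with medians of -2.61 and 0.092. Here the fit without UK replicate 5 gave 26 chains, 3 higher and 23 lower, beside 85.9% of all genes (46.6% higher and 39.3% lower). UK against TGFb gave 20 changes, 14 of them lower, where 50.5% of all genes were called and 22.5% were lower, with medians of -0.51 and 0.085. Leaving out UK replicate 5, 22 passed, 8 higher and 14 lower, beside 70.9% of all genes (35.9% higher and 35.0% lower). The higher chains include COL20A1 in each drug group and COL24A1 in TrogGW. Both passed the count filter only through drug groups where they were high, so their part in these counts is a description. Scaling by library totals alone moves the median of all genes by 0.68 in Trog, 0.85 in TrogGW and 0.23 in UK against TGFb. The chains' medians were then -1.12, -1.76 and -0.26, and the calls were 3 higher and 18 lower in Trog, 4 higher and 21 lower in TrogGW and 6 higher and 11 lower in UK. Shares of all genes called were not worked out under that scaling, so these calls cannot be set against all genes. In Trog that scaling ended the calls of COL4A3, COL4A4, COL4A5, COL16A1 and COL23A1 and added COL4A6 as higher. COL1A2 was then -4.13 and COL5A1 -4.07 in Trog against TGFb on the log2 scale.

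Drug groups were also compared with each other. Adding GW9662 to troglitazone left 15 chains lower and 4 higher in TrogGW than in Trog, 19 of 27, beside 43.2% of all genes called and 20.4% lower. The chains' median was -0.79 and that of all genes 0.0096. With UK replicate 5 left out, 24 of 27 passed, 20 lower and 4 higher, beside 71.6% of all genes (36.2% higher and 35.4% lower). In UK against Trog, 22 of 27 chains were higher in UK and the other 5 (COL4A1, COL6A3, COL14A1, COL16A1 and COL20A1) did not pass, beside 61.1% of all genes called and 32.9% higher, with medians of 1.32 and 0.041. Library totals alone, which move the median of all genes by -0.46, gave 17 higher and 2 lower, the latter COL6A3 (-0.74) and COL14A1 (-0.52). Here too the share of all genes called under that scaling was not worked out. COL6A3 was also called lower in UK without UK replicate 4 (-0.50), and COL16A1 was called higher under DESeq2 (0.26) and without Trog replicate 3 or 4, TrogGW replicate 1 or UK replicate 1 or 2 (0.26 to 0.33). Without UK replicate 5, 23 chains were higher, beside 75.1% of all genes (37.2% higher and 37.9% lower). Troglitazone and UK-5099 were given at different doses. The comparisons with TGFb, that of TGFb with FB included, share its 5 libraries, so their values for a chain are given side by side and do not count as independent of each other.

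**Figure D1:**
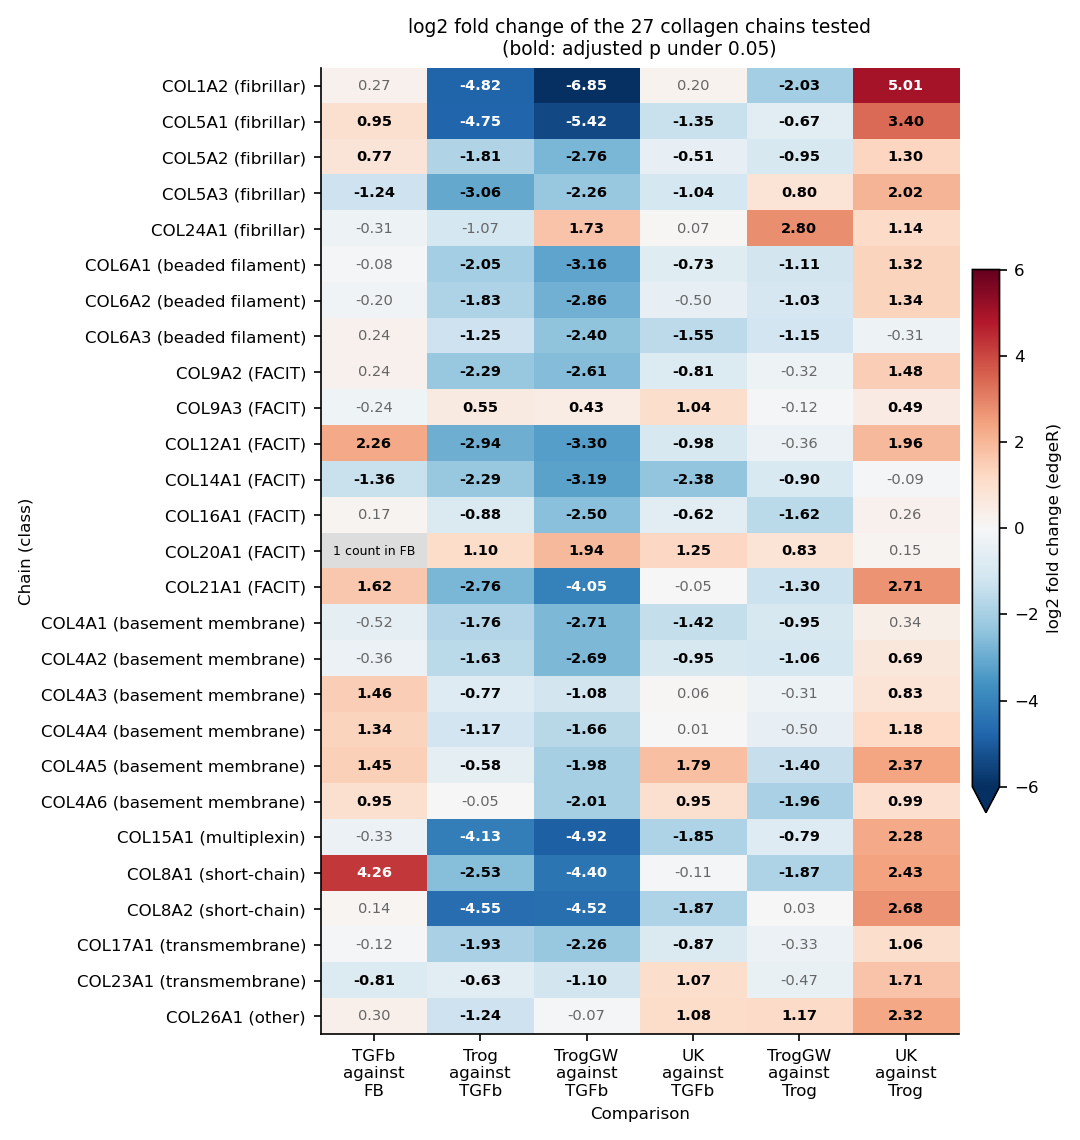
Fitted log2 fold change (edgeR) of each of the 27 tested chains, by class, in 6 comparisons; red is higher in the group named first, blue is lower, and bold values passed an adjusted p under 0.05. The Trog and TrogGW columns against TGFb are mostly blue, with -6.85 for COL1A2 in TrogGW, while COL4A5 in UK against TGFb is red at 1.79; COL20A1 has no fitted value against FB, where it had 1 count.

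COL1A2 encodes the second chain of type I collagen, the bulk protein of the stroma, and with COL5A1 and COL8A2 it had the largest falls in Trog. Its level was 32159.6, 28602, 30346, 31102 and 31668 CPM in the 5 FB libraries and 39402, 37145, 38372, 35608 and 35265 CPM in TGFb. In Trog it was 853, 1359, 1791, 1259.7 and 1336 CPM, in TrogGW 825, 196, 132, 142 and 318, and in UK 46641, 43203, 44763, 45413 and 33025, replicate 5 last. Every Trog and TrogGW library lay below every library of the other groups, and every TGFb library lay above every FB library. In Trog COL1A2 fell from TGFb by 28.2 times (log2 fold change -4.82 ± 0.392, SE, edgeR adjusted p = 1.76e-10), and in TrogGW the log2 fold change was -6.85 ± 0.431. TrogGW replicate 1 was far above the other 4 of its group. Without it the change against TGFb was -7.56. Against Trog the further difference in TrogGW was -2.03 ± 0.347 (adjusted p = 4.05e-05), and -2.75 without that library. The rise in TGFb over FB, 0.27 ± 0.334, did not pass the test over all libraries (adjusted p = 0.567) but did in a fit of FB and TGFb alone, and UK did not differ from TGFb by the test (0.20 ± 0.334, and 0.28 ± 0.311 without UK replicate 5). From Trog to UK the level was 32.3 times higher (5.01 ± 0.396, adjusted p = 1.47e-10).

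COL5A1 and COL5A2 make type V collagen, which starts fibrils and limits their width. COL5A1 was at 4777, 4241, 5229, 4747 and 5096 CPM in FB and at 10394, 9701, 9270.0, 8365 and 8949 CPM in TGFb. It was at 283, 322, 395, 398 and 333 CPM in Trog, 332, 175, 159, 170.5 and 251 in TrogGW and 4000.2, 3855, 4322, 4993 and 1116 in UK. The TGFb libraries were the highest, the Trog and TrogGW libraries the lowest, and UK replicate 5 lay far below the other UK libraries. COL5A1 rose with TGFb1 (0.95 ± 0.255, edgeR adjusted p = 0.0044) and was 27 times lower in Trog than in TGFb (-4.75 ± 0.296, adjusted p = 1.47e-12). In TrogGW the change from TGFb was -5.42 ± 0.306. In UK it was -1.35 ± 0.257, and -1.12 ± 0.152 without replicate 5. The difference of TrogGW from Trog, -0.67 ± 0.254 (adjusted p = 0.0362), lost its call without Trog replicate 3 (-0.62) or 4 (-0.62), without TrogGW replicate 2, 3 or 4 (-0.60, -0.58 and -0.60) and with library totals alone (-0.51). With library totals alone the rise in TGFb was 0.58 and did not pass.

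COL5A2, the partner chain, showed smaller differences. Its level was 7356, 7026, 6804, 7569 and 7098 CPM in FB, 13355, 12349.8, 12468, 11545 and 11613 in TGFb, 3413, 3151, 3566, 3755 and 3629 in Trog and 2887, 1636, 1397, 1292 and 1861 in TrogGW. In UK it was 9750.2, 8712, 10012, 10165 and 4388 CPM. The groups FB, TGFb, Trog and TrogGW did not overlap, and UK replicate 5 lay between Trog and FB while the other UK libraries lay between FB and TGFb. COL5A2 rose with TGFb1 (0.77 ± 0.192, edgeR adjusted p = 0.00237, and 0.40 with library totals alone, which did not pass). It fell in Trog (-1.81 ± 0.197, adjusted p = 2.57e-08) and in TrogGW (-2.76 ± 0.204) against TGFb, and TrogGW was below Trog (-0.95 ± 0.193). The fall in UK against TGFb, -0.51 ± 0.192 (adjusted p = 0.0296), was lost in a fit of those 2 groups alone (-0.50), without TGFb replicate 1 (-0.48) or 3 (-0.51), and with library totals alone (-0.26). Without UK replicate 5 it was -0.34 ± 0.141 and passed.

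COL5A3, a further chain of type V, was lower with TGFb1. It was at 429, 407, 419, 408 and 436 CPM in FB and 193, 183, 179, 163 and 172 in TGFb, then at 19.8, 17.4, 23.7, 22.8 and 22.9 in Trog, 60.7, 32.3, 27.4, 23.2 and 42.5 in TrogGW and 78.6, 84, 86, 92.9 and 91.9 in UK. FB was highest, Trog was lowest save for an overlap with 1 TrogGW library, UK lay below TGFb in all 5 libraries, and the UK libraries, replicate 5 included, lay close together. COL5A3 fell in TGFb against FB (-1.24 ± 0.167, edgeR adjusted p = 1.97e-06), and again in Trog (-3.06 ± 0.178), TrogGW (-2.26 ± 0.172) and UK (-1.04 ± 0.166) against TGFb. It was 1 of the 4 chains higher in TrogGW than in Trog (0.80 ± 0.167, adjusted p = 0.000379). The minor fibrillar chain COL24A1 had group means of at most 1.0 CPM and was another of the 4. Its mean was 0.139 ± 0.0643 CPM in Trog and 1.0 ± 0.281 in TrogGW (SD, n = 5), a difference of 2.80 ± 0.371 given as a description. The chain passed the count filter through TrogGW, where its libraries were at 0.717 to 1.46 CPM while no other library was above 0.498, so it could be tested only because it was high there, and 3 of the 4 chains remain without it. It did not pass in Trog against TGFb (-1.07 ± 0.483) but was called lower there without UK replicate 5 (-1.07 ± 0.452), TGFb replicate 4 (-1.28) or Trog replicate 3 (-1.24) and under DESeq2 (-1.11). It passed in UK against Trog (1.14 ± 0.466, adjusted p = 0.0385) but not without Trog replicate 1, 2 or 5 or UK replicate 1 or 4 (0.86 to 1.14), with library totals alone (0.71) or with a block for replicate number.

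**Figure D2:**
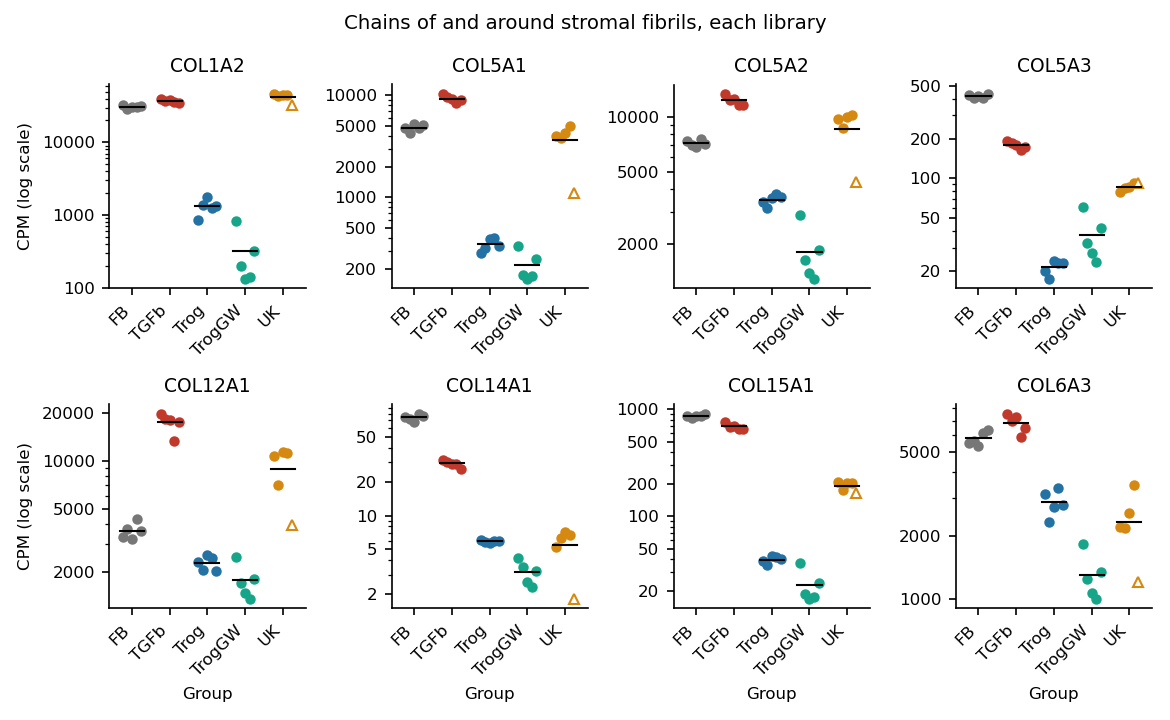
Level in CPM (log scale) of 8 chains of and around the fibrils in each of the 25 libraries; points are libraries in replicate order, black lines are group means, and the open triangle is UK replicate 5. COL12A1 is highest in TGFb (mean 17457 CPM), COL14A1 and COL5A3 are highest in FB, and Trog and TrogGW are lowest for COL1A2, COL5A1 and COL15A1.

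The ratio of 2 chains of 1 collagen within a library does not depend on the scaling between libraries. For 6 such pairs the ratio of counts (0.5 added to each) was compared in 6 comparisons by a two-sided exact permutation test, in which 5 against 5 libraries cannot give p below 0.00794. Of the 36 tests, 28 passed after Benjamini-Hochberg adjustment over the 36, and 28 also without UK replicate 5. The tests share groups, and COL6A1 is in more than 1 pair, so they are not independent. Ratios of other gene pairs were not tested, so how often any pair would pass is not known. A ratio of counts carries the chains' lengths, so only its change between groups is read. COL5A2 to COL5A1 was 1.54, 1.66, 1.3, 1.59 and 1.39 in FB and 1.28, 1.27, 1.35, 1.38 and 1.3 in TGFb. In Trog it was 12.1, 9.78, 9.03, 9.43 and 10.9, in TrogGW 8.7, 9.36, 8.8, 7.58 and 7.41, and in UK 2.44, 2.26, 2.32, 2.04 and 3.93. All Trog, TrogGW and UK libraries had more COL5A2 per COL5A1 than any TGFb library. The mean log2 ratio differed from TGFb by 2.95 in Trog, 2.66 in TrogGW and 0.94 in UK (0.78 without replicate 5), each with an adjusted exact permutation p of 0.0124. As geometric means the ratio went from 1.32 in TGFb to 10.2 in Trog and 2.52 in UK.

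COL1A2 to COL1A1, the 2 chains of type I collagen, separated Trog from TrogGW. The ratio was 0.567, 0.578, 0.612, 0.643 and 0.639 in TGFb, 1.1, 1.35, 1.18, 1.09 and 1.12 in Trog and 0.616, 0.288, 0.224, 0.24 and 0.364 in TrogGW. Trog libraries were all above TGFb and all above TrogGW, and TrogGW replicate 1 overlapped TGFb while the other 4 lay below it. The log2 difference was 0.94 for Trog against TGFb and -1.85 for TrogGW against Trog, each with an adjusted exact permutation p of 0.0124. In UK the geometric mean was 0.658, against 0.607 in TGFb and 0.708 in FB. The difference of UK from TGFb, 0.12, did not pass (adjusted exact permutation p = 0.175).

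**Figure D3:**
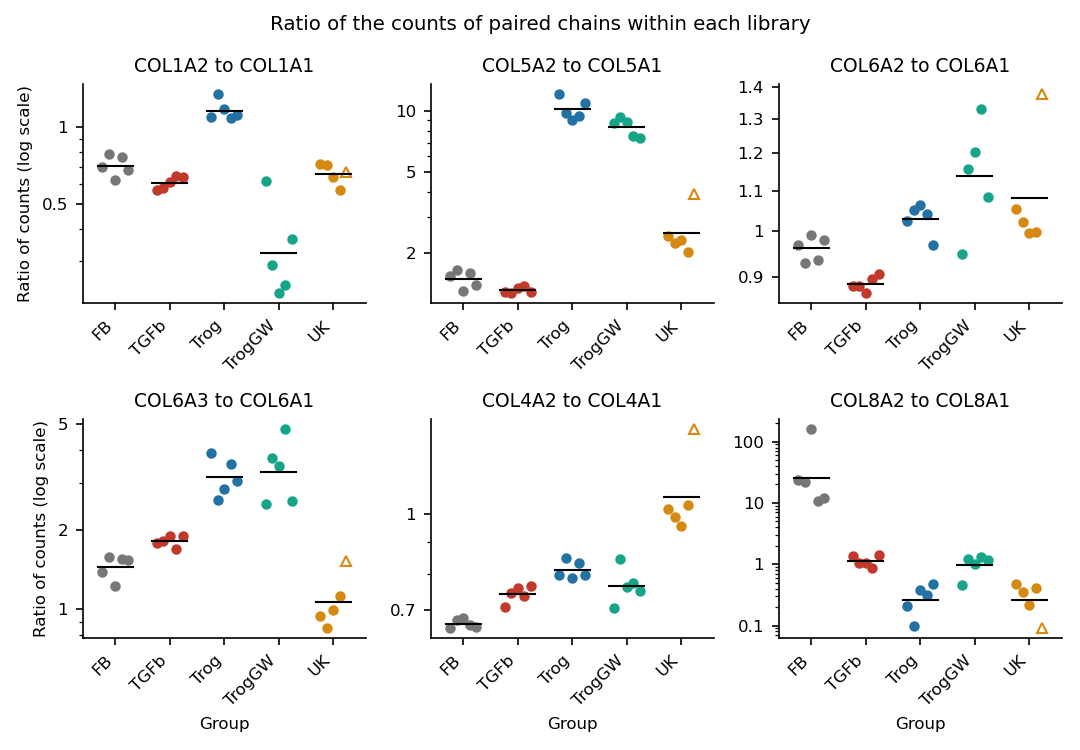
Ratio of the counts of paired chains (log scale) within each of the 25 libraries; points are libraries, black lines are geometric means, and the open triangle is UK replicate 5. COL5A2 to COL5A1 is near 1.49 in FB and 1.32 in TGFb but 10.2 in Trog, COL1A2 to COL1A1 is highest in Trog and lowest in TrogGW, and COL6A3 to COL6A1 is lowest in UK.

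Among chains that coat fibrils, COL12A1 and COL14A1 moved in opposite directions with TGFb1. COL12A1, a homotrimer of the surface of fibrils that is induced in healing stroma, was at 3331, 3699.5, 3244, 4299.7 and 3634 CPM in FB and 19846, 18362, 18086, 13413 and 17576 CPM in TGFb. It was at 2309, 2056, 2542, 2445 and 2014 CPM in Trog, 2486, 1711, 1465, 1356 and 1815 in TrogGW and 10762, 7007, 11449.9, 11131 and 3959 in UK. TGFb was the highest group in every library, UK lay between TGFb and FB except for replicate 5, and all Trog libraries were below FB. COL12A1 was 4.79 times higher in TGFb than in FB (2.26 ± 0.221, edgeR adjusted p = 1.46e-08) and fell from there in Trog (-2.94 ± 0.227), TrogGW (-3.30 ± 0.231) and UK (-0.98 ± 0.213, -0.79 ± 0.15 without replicate 5). Against FB, Trog was lower by the test (-0.68 ± 0.212) but not with library totals alone (-0.37). COL14A1, which spaces fibrils in differentiated tissue, was at 74.8, 71.7, 67.2, 80.1 and 76.8 CPM in FB and 31.4, 29.5, 28.9, 28.8 and 26.1 in TGFb. Its means were 5.91 ± 0.132 CPM in Trog, 3.16 ± 0.759 in TrogGW and 5.46 ± 2.15 in UK (SD, n = 5). FB was above every other group and all drug libraries were below TGFb. The change was -1.36 ± 0.192 in TGFb against FB (adjusted p = 3.86e-06), and -2.29, -3.19 and -2.38 in Trog, TrogGW and UK against TGFb.

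COL21A1 and COL16A1, less studied members of the class, differed in how they stood in UK. COL21A1 was at 10.5, 12.1, 9.93, 12.4 and 11.7 CPM in FB, 41.9, 34, 37.1, 31 and 30.5 in TGFb, 5.76, 4.31, 5.89, 5.04 and 4.84 in Trog, 2.87, 2.15, 1.91, 1.39 and 2.2 in TrogGW and 34.1, 30.3, 37.9, 42.5 and 24 in UK. TGFb and UK were the high groups and overlapped each other, while Trog and TrogGW lay below FB in every library. It rose with TGFb1 (1.62 ± 0.155, edgeR adjusted p = 9.53e-09), fell in Trog (-2.76 ± 0.162) and TrogGW (-4.05 ± 0.175), and did not pass in UK against TGFb (-0.045 ± 0.15). COL16A1 had a mean of 37 ± 3.05 CPM in TGFb, 20.1 ± 2.91 in Trog, 6.54 ± 0.978 in TrogGW and 24.1 ± 3.82 in UK (SD, n = 5). The TrogGW libraries were the lowest, -1.62 ± 0.12 against Trog. The fall in Trog against TGFb, -0.88 ± 0.116, was -0.19 with library totals alone and did not pass there.

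The type IX chains went apart. COL9A2 was at 85.4, 93.3, 90.6, 83.4 and 88.4 CPM in TGFb, 15.9, 20.2, 18.5, 16.8 and 18.7 in Trog, 14.4, 14.5, 16.2, 10.7 and 16.5 in TrogGW and 32.4, 31.4, 31.5, 32.6 and 125 in UK. UK replicate 5 was the highest of all these libraries, above TGFb, while the other UK libraries lay together below TGFb. COL9A2 fell in Trog (-2.29 ± 0.288, edgeR adjusted p = 2.43e-07) and TrogGW (-2.61 ± 0.291). In UK against TGFb it was -0.81 ± 0.276 with all libraries, -1.46 ± 0.0816 without UK replicate 5, -0.68 and not passing without UK replicate 2, and -0.80 and not passing in a fit of those 2 groups. Against Trog, UK was 1.48 ± 0.282 higher and 0.83 ± 0.0841 without UK replicate 5. COL9A3 was instead higher in all 3 drug groups than in TGFb, with 30.5, 36.3, 32, 26.9 and 30.0 CPM in TGFb, 39.4, 50.6, 45.5, 47.3 and 44.6 in Trog, 37.7, 38.8, 49.2, 38.3 and 45.6 in TrogGW and 44.6, 58, 53.3, 72 and 92.7 in UK. All drug libraries were above all TGFb libraries, UK had the highest mean, and the changes were 0.55 ± 0.142 in Trog (adjusted p = 0.00185), 0.43 ± 0.142 in TrogGW and 1.04 ± 0.143 in UK, 0.87 ± 0.104 without replicate 5. In the RefSeq table of the cat the span of COL9A3 overlaps that of TCFL5, so reads of the pair could be shared. TCFL5 itself had log2 fold changes of 0.17 in Trog, -0.58 in TrogGW and 0.31 in UK against TGFb, of which only the fall in TrogGW passed. UK was above Trog in COL9A3 by 0.49 ± 0.141, which did not pass in a fit of those 2 groups (0.49) or with library totals alone (0.012). COL20A1 was close to absent in FB, with 1 count in 5 libraries, and had means of 0.344 ± 0.0995 CPM in TGFb, 0.752 ± 0.232 in Trog, 1.34 ± 0.545 in TrogGW and 0.848 ± 0.185 in UK (SD, n = 5). The ratio of TGFb to FB was 34, with a 95% counting interval of 5.62 to 1391. Against TGFb, COL20A1 was higher in TrogGW (1.94 ± 0.319), UK (1.25 ± 0.35) and Trog (1.10 ± 0.342). These values are a description, since the chain passed the count filter only through the drug groups, where it was high. TrogGW was above Trog (0.83 ± 0.261), but 0.64 and not passing without TrogGW replicate 1.

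Type VI collagen is built from COL6A1, COL6A2 and a further chain such as COL6A3. In TGFb against FB its 3 tested chains did not pass in the fit of all libraries, with COL6A1 at -0.079 ± 0.27, COL6A2 at -0.20 ± 0.212 and COL6A3 at 0.24 ± 0.191. In a fit of those 2 groups COL6A2 was called lower (-0.20) and COL6A3 higher (0.24), and with library totals alone COL6A2 was called lower (-0.58). COL6A1 was at 4238, 3874, 3836, 3486 and 3446 CPM in TGFb, 817, 899, 965, 948 and 916 in Trog, 729, 335, 310.1, 211 and 523 in TrogGW and 2333, 2556, 2578, 3102 and 795 in UK. COL6A3 was at 7559, 6992, 7267, 5869 and 6486 CPM in TGFb, 3164, 2324, 2746, 3357 and 2801 in Trog, 1819, 1243, 1073, 1006 and 1342 in TrogGW and 2206, 2174, 2567, 3483 and 1207 in UK. For COL6A1 the UK libraries other than replicate 5 lay above the Trog libraries, whereas for COL6A3 the UK libraries overlapped the Trog libraries. COL6A1 fell by 4.15 times in Trog (-2.05 ± 0.28, edgeR adjusted p = 8.83e-07) and by 8.96 times in TrogGW (-3.16 ± 0.293). Its fall in UK, -0.73 ± 0.271, was lost in a fit of the 2 groups (-0.72), without TGFb replicate 1 (-0.69) and with library totals alone (-0.47). Without UK replicate 5 it was -0.51 ± 0.191 and passed. COL6A2 fell in Trog (-1.83 ± 0.219) and TrogGW (-2.86 ± 0.227) and did not pass in UK (-0.50 ± 0.213, adjusted p = 0.0546). The fall in UK was called under DESeq2 (-0.51), with RLE scaling (-0.51) and without UK replicate 4 (-0.61) or TrogGW replicate 1 or 4 (-0.50 each), but not without UK replicate 5 (-0.32 ± 0.152). COL6A3 fell in Trog (-1.25 ± 0.194), TrogGW (-2.40 ± 0.201) and UK (-1.55 ± 0.196, adjusted p = 4.80e-07).

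The ratio of COL6A3 to COL6A1 was lowest in UK. It was 1.78, 1.8, 1.89, 1.68 and 1.88 in TGFb, 3.87, 2.58, 2.85, 3.54 and 3.06 in Trog, 2.5, 3.71, 3.46, 4.77 and 2.56 in TrogGW and 0.945, 0.851, 0.996, 1.12 and 1.52 in UK. Trog and TrogGW libraries were above, and UK libraries below, all TGFb libraries. On the log2 scale the difference from TGFb was 0.80 in Trog, 0.87 in TrogGW and -0.76 in UK (-0.89 without replicate 5), and UK against Trog was -1.56, each with an adjusted exact permutation p of 0.0124. COL6A2 to COL6A1, neighbouring genes, stayed between 0.885 and 1.14 in the group geometric means. The higher ratio of Trog than of TGFb, by 0.22, passed with no overlap of libraries (adjusted exact permutation p = 0.0124).

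The 6 type IV chains come as 3 pairs of adjacent genes in the RefSeq gene order of the cat, COL4A1 with COL4A2, COL4A3 with COL4A4, and COL4A5 with COL4A6, and the pairs parted. COL4A1 was at 141, 127, 137, 138 and 146 CPM in FB and 106, 97.3, 96.7, 86.4 and 94.9 in TGFb, and at 28, 25.8, 31.5, 31.6 and 25 in Trog, 24.2, 11.9, 10.5, 9.27 and 17.6 in TrogGW and 36.2, 40.7, 41.3, 45.8 and 15.6 in UK. Every TGFb library was below every FB library, and every drug library was below TGFb. The fall in TGFb against FB was -0.52 ± 0.223 for COL4A1 (edgeR adjusted p = 0.0721) and -0.36 ± 0.185 for COL4A2, neither of which passed with all libraries. Both passed without UK replicate 5 (-0.51 ± 0.131 and -0.35 ± 0.118). Against TGFb, COL4A1 was -1.76 ± 0.23 in Trog, -2.71 ± 0.239 in TrogGW and -1.42 ± 0.228 in UK, and COL4A2 was -1.63, -2.69 and -0.95. In UK against Trog, COL4A1 did not pass (0.34 ± 0.225) except without UK replicate 5 (0.53 ± 0.149), and the rise of COL4A2 (0.69 ± 0.187) was 0.25 and did not pass with library totals alone.

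COL4A3 and COL4A4, which with COL4A5 make the network of kidney and other specialised basement membranes, rose with TGFb1. COL4A3 was at 61.7, 73.6, 56.3, 76.7 and 65 CPM in FB and 197, 187, 184, 159 and 188 in TGFb. In Trog it was at 109, 93.3, 110.0, 125 and 97.8, in TrogGW at 120.1, 85, 76.4, 65.8 and 85 and in UK at 219, 193, 241, 256 and 45.5 CPM. UK replicate 5 was the lowest of all 25 libraries, and the other UK libraries overlapped the top of TGFb or lay above it. COL4A3 was 2.74 times higher in TGFb than in FB (1.46 ± 0.268, edgeR adjusted p = 0.000113) and COL4A4 2.53 times (1.34 ± 0.328). In Trog both fell from TGFb, with log2 changes of -0.77 ± 0.264 and -1.17 ± 0.326, but with library totals alone the changes were -0.088 and -0.48 and did not pass. TrogGW gave -1.08 ± 0.265 and -1.66 ± 0.331, the first of which was -0.24 and did not pass with library totals alone. UK against TGFb gave 0.061 ± 0.262 and 0.012 ± 0.322, which did not pass, and 0.31 ± 0.115 and 0.29 ± 0.125 without UK replicate 5, which did. UK was above Trog in both (0.83 ± 0.264 and 1.18 ± 0.327), though neither passed in a fit of those 2 groups (0.84 and 1.19) and COL4A3 was 0.42 and did not pass with library totals alone. Against FB, COL4A3 was still higher in Trog (0.68 ± 0.264), a call lost without FB replicate 1 (0.66) or 3 (0.63) or Trog replicate 4 (0.62).

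COL4A5 and COL4A6 were the type IV chains that rose in UK against TGFb with all libraries. COL4A5 was at 38.2, 40.4, 40.8, 45.1 and 47.5 CPM in FB, 133, 117, 116, 101 and 111 in TGFb, 71.7, 71.1, 87.7, 90.5 and 66.9 in Trog, 42.8, 28.4, 25, 19.4 and 31.6 in TrogGW and 453, 387, 496, 475 and 197 in UK. All 5 UK libraries, replicate 5 included, were above every other library, and the TrogGW libraries were below TGFb and Trog. COL4A5 rose in TGFb over FB (1.45 ± 0.198, edgeR adjusted p = 2.46e-06). In UK it was 3.47 times the TGFb level (1.79 ± 0.199, adjusted p = 6.87e-08, 1.97 ± 0.127 without replicate 5) and 9.47 times the FB level (3.24 ± 0.211). It fell in TrogGW against TGFb (-1.98 ± 0.201) and against Trog (-1.40 ± 0.198). In Trog the fall from TGFb, -0.58 ± 0.195, turned to 0.11 with library totals alone, so its direction depends on the scaling. The level of COL4A6 was 10.9, 10.9, 11.2, 10.0 and 12.2 CPM in FB, 21.7, 25.4, 20.3, 19.1 and 20.2 in TGFb, 19.7, 19.8, 24.6, 21 and 18.2 in Trog, 8.54, 4.26, 5.18, 3.23 and 5.37 in TrogGW and 44.8, 41.6, 49.8, 53.3 and 15.7 in UK. Trog overlapped TGFb, TrogGW was the lowest group, and UK replicate 5 was the lowest UK library while the other 4 were above all others. Its changes were 0.95 ± 0.235 in TGFb against FB (0.58 and not passing with library totals alone), -0.046 ± 0.23 in Trog (0.64 and called higher with library totals alone), -2.01 ± 0.243 in TrogGW and 0.95 ± 0.231 in UK against TGFb, 1.15 ± 0.131 without replicate 5. TrogGW was below Trog (-1.96 ± 0.242, adjusted p = 5.03e-07).

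**Figure D4:**
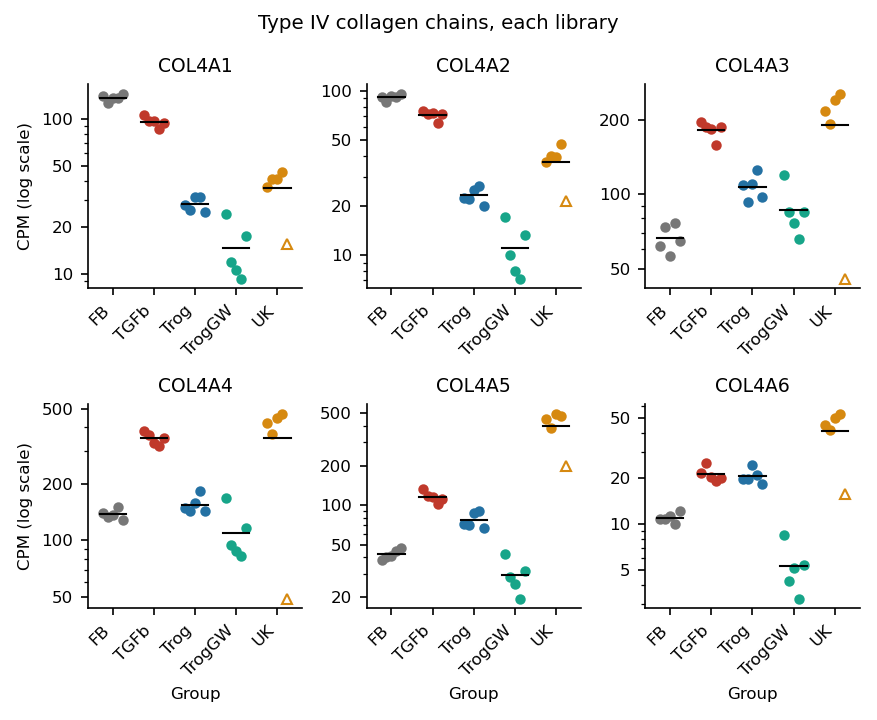
Level in CPM (log scale) of the 6 type IV chains in each of the 25 libraries; points are libraries in replicate order, black lines are group means, and the open triangle is UK replicate 5. COL4A1 and COL4A2 are highest in FB, COL4A3 and COL4A4 are higher in TGFb than in FB, and COL4A5 is highest in UK (mean 402 CPM, against 116 in TGFb), with UK replicate 5 the lowest UK library in all 6 panels.

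Within libraries, COL4A2 to COL4A1 was 0.664 in FB, 0.743 in TGFb, 0.812 in Trog, 0.765 in TrogGW and 1.06 in UK as geometric means. All TGFb libraries were above FB, and all UK libraries were above TGFb and Trog (log2 differences 0.16, 0.52 and 0.39, each with an adjusted exact permutation p of 0.0124). Without UK replicate 5 the UK differences were 0.43 and 0.30. Ratios across the pairs are given as a description. COL4A5 to COL4A1 had geometric means of 0.307 in FB, 1.2 in TGFb, 2.72 in Trog, 2.07 in TrogGW and 11.3 in UK, and COL4A3 to COL4A1 had 0.482, 1.9, 3.77, 6.15 and 4.86. These last pairs were chosen after their values were seen and were not tested.

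COL15A1, a multiplexin that ties basement membranes to the stroma, was lower in all drug groups than in TGFb. It was at 866, 828, 869.7, 872 and 913 CPM in FB and 764, 681, 694, 662 and 656 in TGFb, then 38, 35.3, 42.7, 41.4 and 40.2 in Trog, 37, 19, 17, 17.6 and 23.6 in TrogGW and 209, 177, 205, 204 and 164 in UK. The UK libraries lay between TGFb and Trog without overlap, and UK replicate 5 was near the others. COL15A1 was 17.5 times lower in Trog (-4.13 ± 0.165, edgeR adjusted p = 5.45e-16), 30.3 times lower in TrogGW (-4.92 ± 0.171) and 3.6 times lower in UK (-1.85 ± 0.149) than in TGFb. In TGFb against FB it was -0.33 ± 0.145 and did not pass with all libraries, but did without UK replicate 5 (-0.33 ± 0.114).

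COL8A1 and COL8A2 make type VIII collagen, the hexagonal lattice of Descemet's membrane under the stroma. Both were below 10 CPM. COL8A1 was at 0.119, 0.151, 0, 0.299 and 0.385 CPM in FB, 3.94, 4.14, 4.85, 3.58 and 2.67 in TGFb, 0.687, 0.577, 0.771, 0.746 and 0.507 in Trog, 0.192, 0.148, 0.12, 0.208 and 0.211 in TrogGW and 3.5, 3.68, 3.65, 4.38 and 2.47 in UK. COL8A2 was at 3.52, 3.78, 4.13, 3.38 and 5.0 CPM in FB, 5.34, 4.32, 5.08, 3.13 and 3.79 in TGFb, 0.129, 0.0385, 0.284, 0.224 and 0.23 in Trog, 0.0766, 0.185, 0.12, 0.278 and 0.254 in TrogGW and 1.64, 1.27, 0.771, 1.76 and 0.183 in UK. COL8A1 was low in FB and high in TGFb and UK, whereas COL8A2 overlapped between FB and TGFb and was lower in all drug groups. With TGFb1, COL8A1 rose 19.2 times (4.26 ± 0.307, edgeR adjusted p = 8.42e-11) and COL8A2 did not pass (0.14 ± 0.263). In Trog both fell from TGFb (-2.53 ± 0.246 and -4.55 ± 0.371), as they did in TrogGW (-4.40 and -4.52). In UK COL8A1 did not pass (-0.11 ± 0.214) and COL8A2 fell (-1.87 ± 0.295). COL8A2 to COL8A1 went from a geometric mean of 25.4 in FB to 1.13 in TGFb (log2 difference -4.49, adjusted exact permutation p = 0.0124). Counts this low make the ratio imprecise.

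Both transmembrane chains tested were low. COL23A1 was at 13.4, 15.4, 15.1, 14.6 and 17.2 CPM in FB, 9.58, 8.22, 9.14, 7.17 and 8.83 in TGFb, 5.03, 5.73, 5.84, 6.16 and 4.93 in Trog, 3.45, 3.89, 4.38, 4.24 and 4.1 in TrogGW and 10.7, 13.6, 12.1, 18.1 and 36.9 in UK. All TGFb libraries were below FB and all UK libraries above TGFb, and UK replicate 5 was the highest of the 25. COL23A1 fell with TGFb1 (-0.81 ± 0.223, edgeR adjusted p = 0.00542) and rose in UK against TGFb (1.07 ± 0.224, 0.67 ± 0.118 without UK replicate 5). Its falls in Trog (-0.63 ± 0.227) and TrogGW (-1.10 ± 0.231) depended on the scaling: with library totals alone they were 0.053 and -0.24 and did not pass. COL17A1, the hemidesmosomal collagen of epithelium, had means of 2.3 ± 0.585 CPM in FB, 2.1 ± 0.244 in TGFb, 0.55 ± 0.202 in Trog, 0.43 ± 0.206 in TrogGW and 1.11 ± 0.336 in UK (SD, n = 5). It fell in Trog (-1.93 ± 0.278), TrogGW (-2.26 ± 0.284) and UK (-0.87 ± 0.262, -0.62 and not passing with library totals alone) against TGFb. The summed epithelial markers were at 11.4 to 14 CPM in FB, 8.46 to 9.77 in TGFb, 1.93 to 3.13 in Trog, 2.99 to 5.41 in TrogGW and 0.637 to 4.21 in UK, with the 3 keratins named above at 0, and their part in the level of COL17A1 was not tested. COL26A1, an extracellular chain, had means of 1.65 ± 0.299 CPM in TGFb, 0.696 ± 0.134 in Trog, 1.58 ± 0.328 in TrogGW and 3.62 ± 1.74 in UK. Trog was below and UK above TGFb in every library (-1.24 ± 0.262 and 1.08 ± 0.233), TrogGW did not pass (-0.07 ± 0.239, but 0.78 and called higher with library totals alone), and TrogGW was above Trog (1.17 ± 0.251). COL8A2, a marker of corneal endothelium, moved beside a summed endothelial level of 4156 to 4679 CPM in TGFb, 1988 to 2168 in Trog, 1859 to 1993 in TrogGW and 1835 to 4034 in UK, whose part in its change was not tested either.

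Set against the untreated cells of day 0, the 3 drug groups stood as follows. Trog differed from FB in 25 of 27 chains, 20 lower and 5 higher, beside 63.9% of all genes called, with a chain median of -1.38 and 0.0011 over all genes (26 chains, 6 higher and 20 lower without UK replicate 5, beside 81.4% of all genes, 40.9% higher and 40.5% lower). TrogGW differed in 22, 20 lower and 2 higher, beside 69.7% of all genes, with medians of -2.33 and 0.031. It differed in 24 chains, 3 higher and 21 lower without UK replicate 5, beside 85.8% of all genes (44.1% higher and 41.8% lower). UK differed in 21, 10 higher and 11 lower, beside 56.4% of all genes, with medians of -0.24 and 0.076. The fit of the other 4 UK libraries gave 23 chains, 11 higher and 12 lower, beside 77.8% of all genes (38.6% higher and 39.1% lower). COL1A2 was -4.54 ± 0.387 in Trog, -6.58 ± 0.426 in TrogGW (-7.29 without TrogGW replicate 1) and 0.47 ± 0.335 in UK, the last not passing (edgeR adjusted p = 0.24) except in a fit of those 2 groups (0.48) and without TrogGW replicate 1 (0.47). For COL5A1 the changes were -3.80, -4.47 and -0.40, for COL15A1 -4.46, -5.25 and -2.18, and for COL14A1 -3.65, -4.55 and -3.74, in the same order. The COL5A1 change in UK did not pass and the other 8 did. Higher than FB in Trog were COL4A3, COL4A5, COL4A6, COL8A1 and COL20A1. In TrogGW these were COL20A1 and COL24A1. COL24A1 passed the count filter only through TrogGW, and COL20A1 only through the drug groups, where each was high. Their differences from FB, also those of COL20A1 in Trog and UK, are therefore a description. COL6A1 in UK against FB was -0.81 ± 0.272, and -0.80 and not passing in a fit of those 2 groups. COL4A5 in TrogGW against FB was -0.53 ± 0.196, and it did not pass without TrogGW replicate 3 (-0.47) or 4 (-0.41) or with library totals alone (-0.058). COL9A2 in UK against FB was -0.57 ± 0.275 and did not pass, but was -1.22 ± 0.0812 and passed without UK replicate 5.

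The 7 chains with too few counts for a test were COL2A1, COL6A6, COL9A1, COL10A1, COL11A2, COL19A1 and COL28A1. COL2A1, the fibrillar chain of cartilage, had 137 counts over the 25 libraries, at least 1 in each, with 27 in FB, 9 in TGFb, 35 in Trog, 47 in TrogGW and 19 in UK. COL11A2, its companion in cartilage, had 10, 7, 18, 69 and 7 in the same order, and COL28A1 had 1, 0, 1, 48 and 0. The TrogGW libraries thus held most counts of COL11A2 and COL28A1, up to 21 and 15 in 1 library. COL10A1, the chain of hypertrophic cartilage, had 0 counts in FB and TGFb, 18 in Trog, 8 in TrogGW and 3 in UK, and its span overlaps NT5DC1, so its counts are uncertain. COL6A6 had 3 counts in Trog, 7 in TrogGW and 0 in the other groups, COL9A1 had 7 counts in all and COL19A1 had 1. COL6A5, COL7A1, COL13A1, COL18A1, COL22A1, COL25A1 and COL27A1 were not analysed here. No fold change is given for the 7 chains, which did not pass the count filter.

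Other genes of the collagen pathway were taken from lists by role. Enzymes that hydroxylate procollagen chains in the endoplasmic reticulum, with their partners and the chaperone SERPINH1, numbered 17 tested, of which 10 were higher and 1 lower in TGFb than FB. Against TGFb, 1 was higher and 15 lower in Trog, 16 were lower in TrogGW, and 3 were higher and 10 lower in UK. The list's median was 0.64 in TGFb against FB, -1.39 in Trog, -2.13 in TrogGW and -0.47 in UK, beside 38.2%, 62.6%, 69.4% and 50.5% of all genes called in these 4 comparisons. Leaving out UK replicate 5 changed the list's calls to 12 higher and 1 lower in TGFb against FB, then 1 higher and 15 lower in Trog, 16 lower in TrogGW and 3 higher and 13 lower in UK, beside 66.0%, 81.0%, 85.9% and 70.9% of all genes. PLOD2, the lysyl hydroxylase of collagen telopeptides, fell in Trog (-3.01 ± 0.097) and in UK (-2.80 ± 0.0962), and the prolyl hydroxylase subunits P4HA2 and P4HA1 fell in Trog (-2.45 ± 0.0986 and -2.39 ± 0.098). SERPINH1 fell in TrogGW (-3.72 ± 0.119). TMEM38B, a cation channel of the endoplasmic reticulum, rose in Trog (0.80 ± 0.246), and P3H2, a prolyl 3-hydroxylase that acts on type IV chains, fell in TGFb (-1.05 ± 0.0894) and rose in UK (1.35 ± 0.090). Of 13 genes of procollagen export, 4 were higher and 2 lower in TGFb than FB, and 2 were higher and 4 lower in Trog, 3 were higher and 5 lower in TrogGW and 1 was higher and 3 lower in UK than in TGFb, with medians of 0.16, -0.11, -0.16 and -0.19. In that order 46.2%, 46.2%, 61.5% and 30.8% of the export genes were called, beside 38.2%, 62.6%, 69.4% and 50.5% of all genes. With all libraries, these shares of 13 genes were lower than those of all genes in the 3 drug comparisons. Export calls without UK replicate 5 were 10 higher and 2 lower in TGFb against FB and 2 higher and 7 lower in Trog. They were 3 higher and 7 lower in TrogGW and 5 higher and 5 lower in UK. Of the export genes 92.3%, 69.2%, 76.9% and 76.9% were then called, beside 66.0%, 81.0%, 85.9% and 70.9% of all genes. Without that library the list stood above all genes in TGFb against FB and in UK, and below in Trog and TrogGW. With 13 genes, such differences are not read as a result about the list. CREB3L1, a transcription factor that drives collagen secretion genes, fell in Trog (-1.89 ± 0.133) and the coat subunit SEC23B rose (0.47 ± 0.101).

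Of 14 tested genes that trim procollagen and crosslink fibrils, 8 were higher and 2 lower in TGFb than FB, and 13 were lower in Trog, 1 was higher and 10 lower in TrogGW and 1 was higher and 8 lower in UK than in TGFb, with medians of 0.60, -2.01, -2.62 and -0.98. The same shares of all genes as for the enzymes apply to this and the next lists, 38.2%, 62.6%, 69.4% and 50.5%, or 66.0%, 81.0%, 85.9% and 70.9% without UK replicate 5. Without that library the calls of this list were 9 higher and 2 lower in TGFb against FB, then 13 lower in Trog, 4 higher and 10 lower in TrogGW and 1 higher and 8 lower in UK. The lysyl oxidases LOXL2 and LOXL1 fell in Trog (-3.76 ± 0.141 and -3.61 ± 0.188) and UK (-2.33 ± 0.133 and -2.18 ± 0.177), and BMP1, the C-terminal procollagen protease, fell in Trog (-2.32 ± 0.103). ADAMTS2, the N-terminal protease, rose with TGFb1 (1.30 ± 0.181), as did TLL1, a relative of BMP1 (2.47 ± 0.292). Among 14 tested collagen receptors, 6 were higher and 2 lower in TGFb than FB, and 4 were higher and 8 lower in Trog, 4 were higher and 8 lower in TrogGW and 1 was higher and 8 lower in UK than in TGFb, with medians of 0.53, -0.76, -1.59 and -0.59. For the receptors the calls without UK replicate 5 were 9 higher and 3 lower in TGFb against FB, then 4 higher and 9 lower in Trog, 4 higher and 10 lower in TrogGW and 4 higher and 9 lower in UK. ITGA10, an integrin alpha chain that binds type IV and other collagens, rose in Trog (4.25 ± 0.26) and UK (2.63 ± 0.256), while its partner ITGB1 (-1.92 ± 0.128) and the proteoglycan SDC1 (-2.28 ± 0.0756) fell in Trog. DDR1, a collagen receptor kinase, rose there (1.24 ± 0.164). Of 11 tested genes of collagen breakdown, 7 were higher and 3 lower in TGFb than FB, and 4 were higher and 5 lower in Trog, 2 were higher and 8 lower in TrogGW and 5 were higher and 4 lower in UK than in TGFb, with medians of 0.64, -0.25, -0.85 and 0.16. Those of breakdown without UK replicate 5 were 8 higher and 3 lower in TGFb against FB, then 5 higher and 6 lower in Trog, 2 higher and 8 lower in TrogGW and 6 higher and 4 lower in UK. CTSK, a cathepsin that cuts triple-helical collagen, rose in Trog (2.92 ± 0.204) and UK (3.29 ± 0.208), MMP14 rose in Trog (1.60 ± 0.129), and MMP16 (-4.70 ± 0.37) and the plasminogen activator PLAU (-1.67 ± 0.105) fell there.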

How the data were processed

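The 25 libraries were prepared from polyadenylated RNA with a TruSeq kit that keeps the strand and were read on a NovaSeq, per the labels' protocols. Programs named in the submitters' processing notes, with no role for any of them, are Salmon 1.5.2, STAR 2.7.9a, fastp 0.23.1, Subread 2.0.1 and featureCounts. The build, the annotation and how strand was counted are not given in the sources used here. No coordinates are therefore printed, and overlapping genes may share reads. For each sample the authors deposited raw whole-number read counts of 13949 symbols, 13111 of which had a count. All 34 chains were found in RefSeq's cat annotation, F.catus_Fca126_mat1.0, given as a list of genes from which only neighbours and overlaps were taken.

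All 25 libraries entered 1 fit in edgeR 4.0.16 (R 4.3.3), with TMM scaling, a mean for each group and edgeR's default expression filter (minimum count 10, minimum total 15), which kept 10699 genes. The quasi-likelihood F test was used, with Benjamini-Hochberg adjustment over those genes and a threshold of 0.05. The standard error was derived as the size of the log2 fold change divided by the root of F. CPM were computed from TMM-scaled library totals. Chain ratios were compared by exact permutation of libraries.

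The members, lists, pairs and tests were chosen with earlier results of these data known. Any chain could be named. Those with a group mean of at least 10 CPM were given by library in at least 1 comparison. COL4A2, COL4A4, COL6A2 and COL16A1 also reached that level but were given by fold changes or group means. Each pathway list gave at most 3 genes per direction with the lowest p in Trog against TGFb and at most 2 in other comparisons. Library values of COL8A1 and COL8A2, which are below 10 CPM, and the ratios across type IV pairs were added after their values were seen. The code was run on simulated data: for TGFb against FB it called 76 of 100 genes set to 2-fold and 43 of 100 set to 1.5-fold, and 9 of 9866 left unchanged. For UK against Trog with nothing changed, 0 of 10066 were called. The alternatives were DESeq2 1.42.0, RLE scaling, library totals alone, a stricter filter or none, only the 2 groups compared, leaving out single libraries, and blocking on the replicate number. Plots were made in matplotlib 3.10.9.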

Additional observations from a re-analysis of the deposited data

Results flagged for a closer look

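Among 105 groups of chain levels and 30 groups of chain ratios, 11 held a library whose gap to its nearest neighbour, over the range of the group, passed Dixon's 95% critical value for 5 libraries (0.71). Chance alone gives such a gap in about 1 group in 20. UK replicate 5 accounted for 8 of the 11. It was low in COL1A2 (33025 CPM, others 43203 to 46641), COL4A4 (48.9, others 367 to 472) and COL5A2 (4388, others 8712 to 10165), and high in COL9A2 (125, others 31.4 to 32.6) and COL23A1 (36.9, others 10.7 to 18.1). Its log2 ratios of COL4A2 to COL4A1 (0.45), COL5A2 to COL5A1 (1.97) and COL6A2 to COL6A1 (0.46) lay above those of the other UK libraries. TrogGW replicate 1 stood out in COL1A2 (825 CPM, others 132 to 318) and in the log2 ratio of COL8A2 to COL8A1 (-1.14, others 0 to 0.39). TGFb replicate 4 was low in COL4A2 (63.7 CPM, others 72.4 to 75.2).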

How the results depend on the processing

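Of 193 called changes of single chains over the 9 comparisons, 191 kept their direction in every alternative that tested the chain. Of them 167 also kept their call, and 185 of the 193 kept both in every fit without 1 library. The stricter filter tested 188 of the 193, and fits of 2 groups also left some untested. The directions that reversed were those of COL4A5 (0.11) and COL23A1 (0.053) in Trog against TGFb, both with library totals alone. The count of changed chains moved by over 1.5 times only for TGFb against FB, with 21 in a fit of those 2 groups. The share of all genes called in that fit was not worked out. Leaving out 1 library at a time gave 13 to 18 chains there, 25 to 26 in Trog, 26 in TrogGW and 18 to 22 in UK against TGFb. A block for replicate number, which the labels share between groups, left the counts as they were except for UK against Trog (21) and UK against FB (22), and ended the call of COL24A1 in UK against Trog (1.13). In 0 of 10 pairs of groups were all same-number correlations of deviations over 0.1 (range -0.31 to 0.48), so the numbers were not taken to pair the libraries. No paired test of chain ratios was run, since 5 pairs cannot give an exact p below 0.0625.

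Some log2 chain ratios crossed the threshold when 1 library was left out. COL1A2 to COL1A1 ranged from -0.27 to -0.18 in TGFb against FB, -1.15 to -0.78 in TrogGW against TGFb and 0.086 to 0.17 in UK against TGFb. COL5A2 to COL5A1 ranged from -0.23 to -0.14 in TGFb against FB and -0.33 to -0.23 in TrogGW against Trog. In TrogGW against Trog, COL4A2 to COL4A1 ranged from -0.12 to -0.056 and COL6A2 to COL6A1 from 0.088 to 0.21. The causes were not tested. Chains with few counts, such as COL8A1, COL20A1 and COL24A1, are limited by depth.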
